A study of Arabidopsis thaliana with 12 samples.

Results

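AT4G07820 and AT2G19970 are 2 genes for PR-1-like secreted proteins, out of 13333 loci that a probe set of the array names alone. Both were selected on values measured in these samples: AT4G07820 for its log2 difference between AB and COL, and AT2G19970 for those between SIZ1 or SAB and COL. Each gene's values in the comparisons that chose it are therefore given as a description with no test. The same holds for both genes in SAB against AB and in the departure of SAB from the added SIZ1 and AB differences. It also holds for AT2G19970 in SAB against SIZ1. The remaining comparisons were tested, but they share arrays with those that served the choice, so their p-values are not independent of it. AT4G07820 is read by probe set 255160_at and AT2G19970 by probe set 265588_at, 1 for each locus. RNA of untreated seedlings was hybridised to 12 ATH1 arrays, 3 for each of 4 genotypes: SAB, SIZ1 and AB, each a knock-out that carries T-DNA insertions, and COL, the Columbia wild type. The labels give Columbia as the background of every line. All seedlings grew on Murashige and Skoog (Gamborg B5) medium at 23 °C under 100 µE. An age, 10 days, is given for AB 1 and AB 2 alone. The meaning of the names AB and SAB, the number of insertion lines behind each name and the origin of the 3 samples per genotype (separate cultures or not) are not in the labels. The p-values below therefore cover only the spread among these samples, possibly a technical one.

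PR-1 is the protein that gave the pathogenesis-related proteins their name: it is secreted, it accumulates in Arabidopsis leaves under salicylic acid after infection, and its gene is a standard marker of that response. The PR-1-like proteins share with it the CAP domain, a compact fold held together by disulphide bonds, and mostly carry a signal peptide that leads them out of the cell. PR-1 proteins of tobacco and tomato bind sterols, and tomato PR-1b gives rise to a short peptide that acts as a defence signal. Most of the related Arabidopsis genes have no assigned function, which holds for both genes described here. SIZ1 is an E3 ligase that attaches the modifier SUMO to other proteins, and Arabidopsis plants without it are known for raised salicylic acid.

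Expression is given on the log2 scale, 1 value per probe set, from 2.02 to 13.21, and the 22746 tested probe sets had a median mean of 3.51. The first quartile of their means was 2.51, close to the level to which this type of array data draws undetected transcripts. The brighter SIZ1 probe set averaged 2.52 in SAB, 2.40 in SIZ1 and 5.26 in AB, against 5.50 in COL, and AT1G09730 (SPF1), a SUMO protease, averaged 3.23, 4.29 and 3.17, against 4.76. The dimmer SIZ1 probe set went the other way, with 3.91 in SAB, 4.32 in SIZ1 and 3.14 in AB, against 3.01 in COL, and was called as higher in SAB and SIZ1 (limma adjusted p = 0.00565 and 0.00104). The place of the SIZ1 probe sets relative to the insertion was not used here. The brighter SIZ1 probe set was thus low in the lines named SIZ1 and SAB, and SPF1 was lowest in AB and SAB. The 24 poly-A control probe sets, for bacterial transcripts added before labelling, averaged 4.09 to 4.45 per array in SAB, 3.85 to 4.21 in SIZ1 and 4.36 to 4.96 in AB, against 4.28 to 4.71 in COL. The signal at the 3′ end of GAPDH exceeded that at its 5′ end, a sign of RNA quality, by 2.41 to 2.60 in SAB, 2.20 to 2.42 in SIZ1 and 2.42 to 2.65 in AB, against 2.42 to 2.56 in COL (log2), so the highest SIZ1 value met the low end of the other genotypes. The amount of RNA averaged 871 ng in SAB, 727 ng in SIZ1 and 739 ng in AB, against 751 ng in COL.

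AT4G07820 was highest in AB, intermediate in COL and lowest in SAB and SIZ1. It stood at 8.50, 8.36 and 8.28 in AB, against 7.36, 7.0 and 7.13 in COL. In SAB it stood at 6.62, 6.61 and 6.92, and in SIZ1 at 6.36, 6.65 and 6.77. All 3 AB values lay above every value of the other genotypes, that of AB 3, whose label gives no age, included, and all 6 values of SAB and SIZ1 lay below the 3 of COL. The means were 6.72 ± 0.18 in SAB, 6.59 ± 0.21 in SIZ1 and 8.38 ± 0.11 in AB, against 7.16 ± 0.18 in COL (SD, n = 3). As a description, AB exceeded COL by 1.22 (SE 0.13), which is 2.32-fold; 4.69% of all probe sets had all 3 AB values above COL. The excess was 1.14, 1.36 and 1.15 between arrays with the same replicate number.

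The comparisons of AT4G07820 that did not serve to choose it were tested, although all of them share arrays with comparisons that did. In SIZ1 the level was lower than in COL by -0.57 on the log2 scale (SE 0.13, 95% interval -0.87 to -0.27), and the difference was not called (limma adjusted p = 0.0539). Over 18 alternative settings this adjusted p ranged from 0.0229 to 0.196, and the difference was called under 4 of them. In SAB the difference from COL was -0.45 (SE 0.13, 95% interval -0.74 to -0.15) and was not called (limma adjusted p = 0.118, and 0.0576 to 0.324 over the alternatives). The 3 values lay below all 3 of COL in both lines, as they did for 26% of all probe sets in SIZ1 and 9.83% in SAB. SAB and SIZ1 differed by 0.12 (SE 0.13, 95% interval -0.17 to 0.42), and their values overlapped (limma adjusted p = 0.880). Their difference is part of the departure that helped to choose the gene, so this test is not independent of the choice. SPF1 signal was low in both SAB and AB, and its relation to the level of AT4G07820 was not tested. As a description, SAB lay below AB by -1.66 (SE 0.13), or 3.16-fold, and departed by -1.09 (SE 0.19) from the value that adding the SIZ1 and AB differences would give. The poly-A controls had the same order of means, with 4.25 in SAB, 4.04 in SIZ1 and 4.67 in AB, against 4.45 in COL, and their part in the differences of AT4G07820, like that of the lower GAPDH difference in SIZ1, was not tested.

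AT2G19970 had another pattern: it was high in SAB and SIZ1 and low in AB and COL. It stood at 6.57, 6.42 and 6.16 in SAB and at 6.05, 5.71 and 6.10 in SIZ1. It stood at 4.45, 4.08 and 4.12 in AB, against 3.99, 3.28 and 4.38 in COL. The 6 values of SAB and SIZ1 lay above all 6 of AB and COL, and those of SAB lay above those of SIZ1. All 3 values lay above the 3 of COL for 8.33% of all probe sets in SAB and 8.1% in SIZ1, and SAB lay above SIZ1 for 6.76%. The means were 6.38 ± 0.21 in SAB, 5.95 ± 0.21 in SIZ1 and 4.21 ± 0.20 in AB, against 3.88 ± 0.56 in COL (SD, n = 3). The spread was widest in COL, where the second array was the lowest of the 12.

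As a description, AT2G19970 exceeded COL by 2.50 (SE 0.25) in SAB and by 2.07 in SIZ1, which is 5.66-fold and 4.20-fold. By replicate number the excess in SAB was 2.59, 3.14 and 1.78, and that in SIZ1 was 2.07, 2.43 and 1.71, so the third pair gave the smallest value in both lines. SAB exceeded AB by 2.17, with 2.13, 2.34 and 2.04 by replicate number. SAB exceeded SIZ1 by 0.43 (SE 0.25), with 0.52, 0.70 and 0.06 by replicate number. The departure from the added SIZ1 and AB differences was 0.10 (SE 0.36). AB against COL is the comparison that did not serve to choose this gene, though its AB and COL arrays also enter comparisons that did. There the difference was 0.33 (SE 0.25, 95% interval -0.24 to 0.90), the values overlapped, and it was not called (limma adjusted p = 0.954, and 0.532 to 1 over 18 alternatives). The poly-A controls were lower than in COL in SAB and SIZ1, by -0.20 and -0.41, and the GAPDH difference ran lower in SIZ1; their part in the differences of AT2G19970 was not tested.

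**Figure D1:**
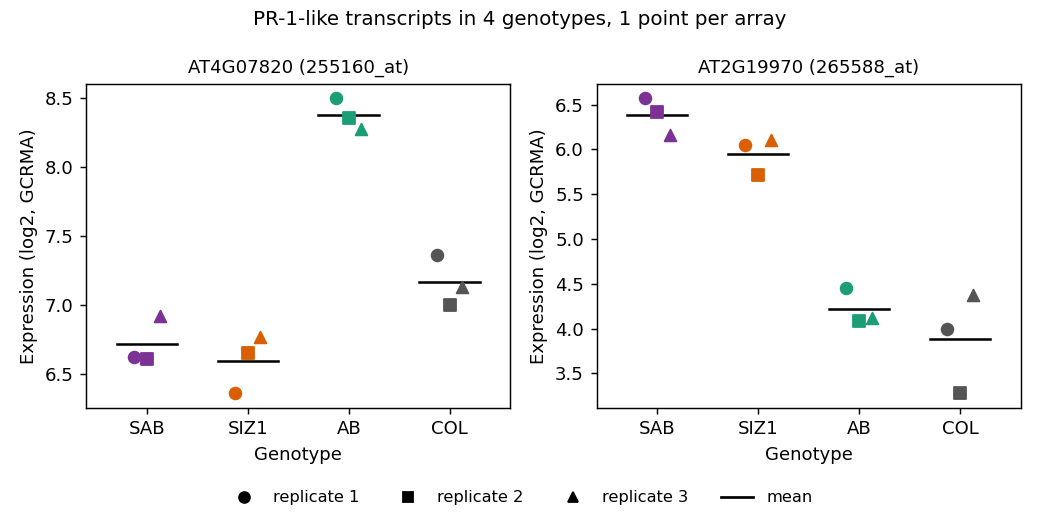
Expression (log2) of AT4G07820 on the left and AT2G19970 on the right in SAB, SIZ1, AB and COL. Each point is 1 array, its shape gives the replicate number and the bar is the mean of 3; AT4G07820 separates AB (8.28 to 8.50) from all others, and AT2G19970 separates SAB and SIZ1 (5.71 to 6.57) from AB and COL (3.28 to 4.45).

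The order of the levels thus differed between the genes. For AT4G07820 it was AB, COL, SAB and SIZ1, and the last pair of neighbours overlapped. For AT2G19970 it was SAB, SIZ1, AB and COL, and AB and COL overlapped. Across the 12 arrays the levels of the genes correlated at r = -0.66, which follows the differences between genotypes, and at r = 0.13 once each genotype's mean was removed.

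The PR-1-like family was examined through a list of 22 Arabidopsis loci, of which 19 have a probe set that names them alone, the 2 genes above among them. The 3 others, among them PR1 (AT2G14610) and PRB1 (AT2G14580), are not analysed here. Of the 17 other measured loci, 1 was higher in SIZ1 than in COL (limma, adjusted p under 0.05) and 0 were lower, where 3.22% of all probe sets were called in either direction and 1.93% as higher, with 1.29% as lower. In SAB 0 of the 17 were called, against 3.21% of all probe sets, and in AB 0, against 0.0615%; in limma 2 of the 17 had an unadjusted p under 0.05 in SAB and 0 in AB, where 16.4% and 7.75% of all probe sets did. A fit with a replicate block called 1167 probe sets in SIZ1, 1173 in SAB and 74 in AB, where the fit without it called 732, 731 and 14, and the counts among the 17 loci stayed at 1, 0 and 0. The median difference of the 17 loci was -0.01 in SIZ1, 0.00 in SAB and 0.00 in AB, beside -0.02, 0.00 and 0.00 over all probe sets. SAB against SIZ1 gave 0 calls among the 17 and 0% among all probe sets, where 0 of the 17 and 4.31% of all had an unadjusted p under 0.05 in limma. SAB against AB gave 0 calls among the 17, where 4.43% of all probe sets were called, and 2 of the 17 had an unadjusted p under 0.05 in limma, against 17.5% of all.

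Most of the family was not measurable above the floor. The means of 12 of the 17 loci lay under the first quartile of all probe sets, with values from 2.17 to 2.54 on all arrays, and none of these differed from COL by more than 0.05 in any line. They include AT2G19980 and AT2G19990 (PR-1-LIKE), the next 2 protein-coding loci after AT2G19970 in the RefSeq annotation. AT2G19980 averaged 2.42 in SAB, 2.41 in SIZ1 and 2.42 in AB, against 2.44 in COL. PR-1-LIKE averaged 2.48 in SAB, 2.47 in SIZ1 and 2.47 in AB, against 2.46 in COL. Neither was called in the lines where AT2G19970 was high. For 7 of the 12 loci all 3 SIZ1 values lay below the 3 of COL, where 26% of all probe sets did so. The largest of these falls was only -0.03, for AT3G19690.

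**Figure D2:**
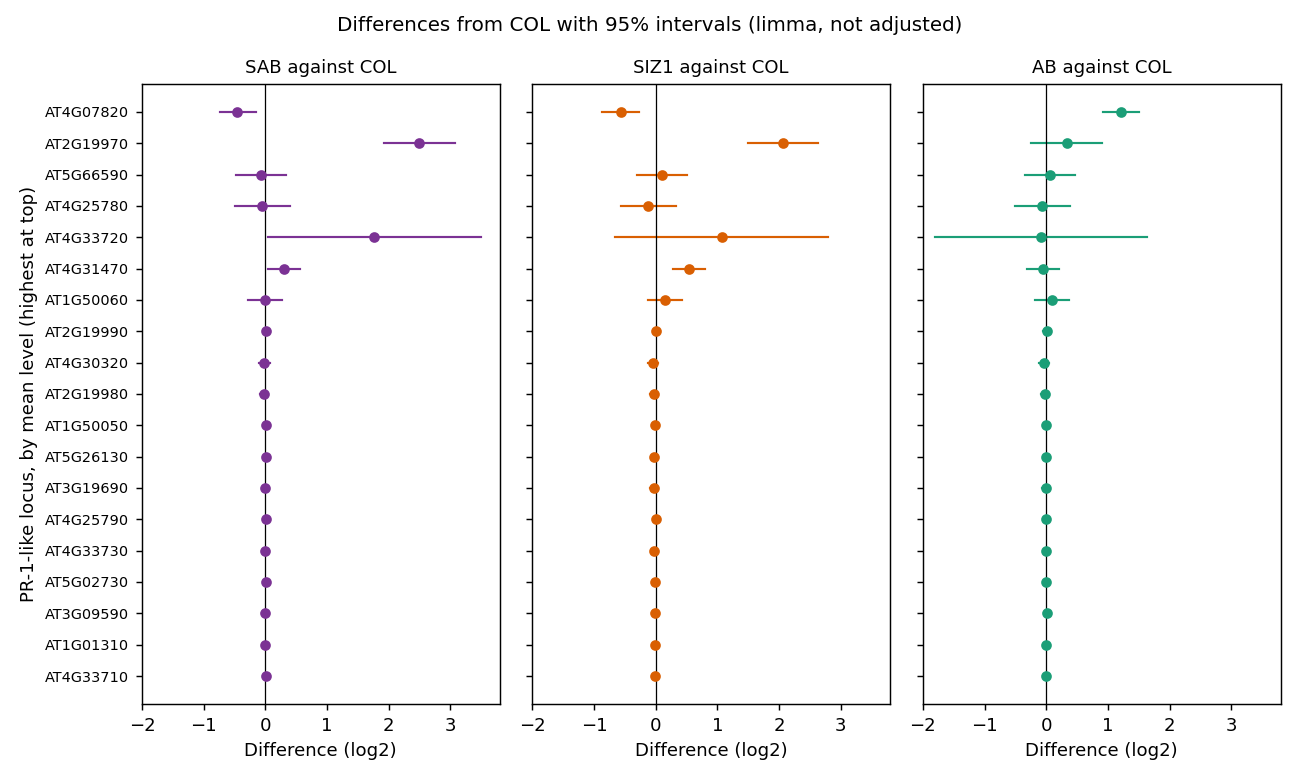
Differences in log2 expression from COL in SAB, SIZ1 and AB (x axis) for the 19 measured PR-1-like loci (y axis, by mean level); points are estimates and lines 95% intervals, not adjusted for the number of tests. AT2G19970 lies farthest from 0 in SAB and SIZ1 and AT4G07820 in AB. These comparisons served to choose the genes, so their intervals there are a description and no test. AT4G33720 has the widest intervals, and the 12 loci at the bottom lie within 0.05 of 0.

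The other 5 loci lay above that quartile. AT4G31470 was the called one: it stood at 3.42, 3.08 and 3.18 in SIZ1, against 2.60, 2.65 and 2.81 in COL. All 3 SIZ1 values lay above the COL values, as for 8.1% of all probe sets, and it rose by 0.54 (SE 0.12, limma adjusted p = 0.0397). It stood at 3.02, 3.09 and 2.85 in SAB, 0.30 above COL (SE 0.12), which was not called (limma adjusted p = 0.221). There was again no overlap, as for 8.33% of all probe sets that lay above COL in SAB. In AB it stood at 2.79, 2.44 and 2.69, within the range of COL but for 1 lower array. SAB and SIZ1 differed by -0.24 (SAB minus SIZ1, 95% interval -0.50 to 0.02), so a difference between the lines was not shown. The call in SIZ1 ended without any 1 of COL 1, COL 2, SIZ1 1, SIZ1 2, SIZ1 3, AB 3, SAB 1 and SAB 2 (limma adjusted p 0.0559 to 0.130), with quantile normalization (0.0592) and in the fit to SIZ1 and COL alone (0.139). Over all alternatives its adjusted p ranged from 0.0262 to 0.139. The transcript lies below the median of all probe sets.

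AT4G33720 had the largest differences of the 17 and was not called. It stood at 5.63, 3.78 and 3.24 in SAB and at 5.33, 2.80 and 2.43 in SIZ1. It stood at 2.40, 2.32 and 2.37 in AB, against 2.31, 2.73 and 2.31 in COL. The first replicate was the high one in SAB and SIZ1, while no array of AB or COL exceeded 2.73. The difference from COL was 1.77 (SE 0.77) in SAB, with no overlap, and 1.07 (SE 0.77) in SIZ1, with overlap (limma adjusted p = 0.291 and 0.601). All 3 SAB values lay above COL for 8.33% of all probe sets. Without SAB 1 the value in SAB was 1.06, and without SIZ1 1 the value in SIZ1 was 0.17. Its neighbours on the chromosome in the family, AT4G33710 and AT4G33730, stayed at the floor.

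The remaining loci, AT5G66590, AT4G25780 and AT1G50060, showed no difference beyond their spread. AT5G66590 averaged 4.07 ± 0.31 in SAB, 4.24 ± 0.10 in SIZ1 and 4.21 ± 0.04 in AB, against 4.14 ± 0.34 in COL (SD, n = 3). AT4G25780 averaged 4.14 ± 0.16 in SAB, 4.07 ± 0.09 in SIZ1 and 4.13 ± 0.33 in AB, against 4.19 ± 0.36 in COL (SD, n = 3). AT1G50060 averaged 2.48 ± 0.03 in SAB, 2.63 ± 0.22 in SIZ1 and 2.58 ± 0.18 in AB, against 2.49 ± 0.15 in COL (SD, n = 3). Their differences from COL ran from -0.12 to 0.15, and the genotypes overlapped for all 3 loci in each line.

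Genes of the defence hormones were read beside the family. Of a list of 17 salicylic acid genes 3 were measured under a name, and 0 were called in SAB, SIZ1 or AB against COL, with 0 at an unadjusted p under 0.05 in limma. Of all probe sets 3.21%, 3.22% and 0.0615% were called in these lines, and 16.4%, 16% and 7.75% had such a p, so 0 of 3 is no result about the list. SAG101, a partner of the immune regulator EDS1, stood at 3.28, 3.46 and 3.35 in SAB and 3.36, 3.20 and 3.54 in SIZ1, against 3.13, 3.16 and 3.19 in COL. All 6 values lay above COL, by 0.20 in SAB and 0.21 in SIZ1, but neither was called (limma adjusted p = 0.491 and 0.487). Of all probe sets 8.33% in SAB and 8.1% in SIZ1 had all 3 values above COL. The transcription factor gene WRKY53 differed from COL by -0.07 in SAB, 0.12 in SIZ1 and -0.03 in AB. GRX480, a glutaredoxin gene induced by salicylic acid, differed by -0.14 in SAB, 0.04 in SIZ1 and 0.31 in AB. Its 3 SAB values lay below the 3 of COL, as for 9.83% of all probe sets, and it was not called there (limma adjusted p = 0.837).

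Of 10 jasmonate or ethylene genes 3 were measured, and 0 were called against COL, with 0 at an unadjusted p under 0.05 in limma, which beside the same shares of all probe sets says as little. PDF1.2, which encodes an antifungal defensin induced by jasmonate and ethylene, stood at 5.0, 4.03 and 3.94 in SAB and at 5.30, 3.38 and 3.26 in SIZ1. It stood at 3.93, 2.99 and 3.39 in AB, against 3.39, 3.55 and 3.06 in COL. Its first replicate was the highest in SAB and SIZ1, as for AT4G33720 in these lines, and also in AB, where AT4G33720 lay at the floor. PDF1.2b stood at 4.66 and 4.77 in the first replicates of SAB and SIZ1, where no other array of these lines exceeded 3.18; its probe set can also read near-identical transcripts, so the pair of defensins may not be independent. THI2.1, a thionin gene, was at the floor.

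**Figure D3:**
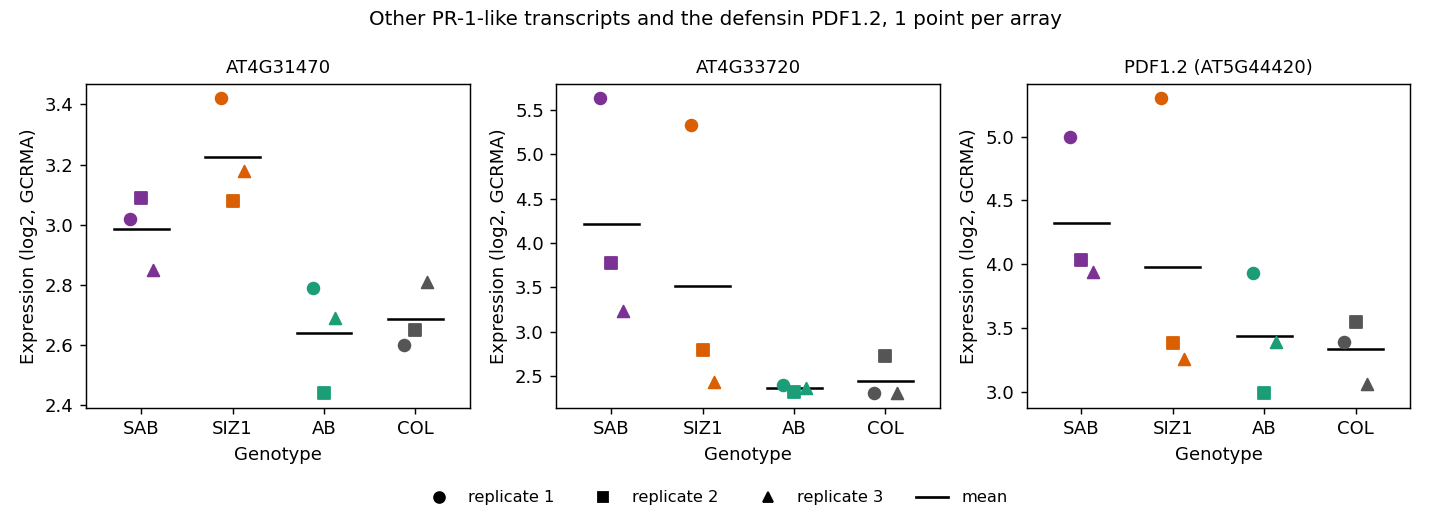
Expression (log2) of AT4G31470, AT4G33720 and PDF1.2 in SAB, SIZ1, AB and COL, 1 point per array with the replicate number as its shape and bars for means of 3; each panel has its own scale. For AT4G33720 and PDF1.2 the first replicate is the highest in SAB (5.63 and 5.0) and in SIZ1 (5.33 and 5.30).

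Markers of the tissues that a seedling sample can hold in different shares were read as well. The 3 measured markers of green tissue were bright in every genotype: LHCB4.1 averaged 12.23 in SAB, 12.18 in SIZ1 and 12.31 in AB, against 12.37 in COL. LHCB4.2, for another light-harvesting protein, averaged 10.41 in SAB, 10.42 in SIZ1 and 10.92 in AB, against 11.26 in COL. RCA, for the activator of Rubisco, averaged 12.25 in SAB, 12.17 in SIZ1 and 12.18 in AB, against 12.19 in COL. Of the 3, limma called 1 as lower in SAB (LHCB4.2), 2 in SIZ1 (LHCB4.1 and LHCB4.2) and 0 in AB, beside 3.21%, 3.22% and 0.0615% of all probe sets called in either direction. In AB 1 of the 3 had an unadjusted p under 0.05 in limma, against 7.75% of all. The 2 measured root hair markers of 10 root loci, EXPA7 and EXPA18, lay between 2.46 and 2.96 on all arrays and were not called. A list of 9 seed reserve loci had 0 measured under a name. In whole seedlings a smaller share of cells with a transcript and less of it per cell cannot be told apart, and the part of tissue shares in the differences of AT4G07820 and AT2G19970 was not tested.

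Loci next to the genes were compared by their order in RefSeq, TAIR10.1. AT2G19960, which precedes AT2G19970, averaged 2.63 in SAB, 2.58 in SIZ1 and 2.76 in AB, against 2.62 in COL. HBT, the third locus after it and a subunit of the anaphase-promoting complex, averaged 4.16 in SAB, 4.46 in SIZ1 and 4.43 in AB, against 4.35 in COL. AT4G07740, which precedes AT4G07820, averaged 2.25 in SAB, 2.24 in SIZ1 and 2.24 in AB, against 2.24 in COL. None was called against COL (limma adjusted p = 0.381 to 1). AT4G07740 lay at the floor and AT2G19960 close to it, so a change of these loci may not have been detectable, and the other loci beside AT4G07820 were not analysed here.

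The genes with the most similar pattern were taken by Pearson's r over the 12 arrays, among 946 probe sets that name 1 gene, lie at or above the median level and have genotype means at least 0.5 apart. These correlations follow the differences between genotypes, and the arrays share their processing. Values of r with the genotype means removed still hold the deviations that arrays of the same replicate number share. The genes were also chosen by r over these same arrays. Closest to AT4G07820 was ARPN (AT2G02850), which encodes plantacyanin, a small secreted blue copper protein (r = 0.975, and 0.65 once the genotype means were removed). It averaged 4.48 ± 0.14 in SAB, 4.36 ± 0.09 in SIZ1 and 5.82 ± 0.25 in AB, against 4.75 ± 0.30 in COL (SD, n = 3). AT1G49310 followed (r = 0.968, and 0.56 within genotypes), with 5.15 in SAB, 5.06 in SIZ1 and 6.15 in AB, against 5.42 in COL. AT3G26470, of a protein with an RPW8 domain as found in immune proteins, had r = 0.946, with a mean of 4.84 in AB, against 4.53 in COL. AT1G35190, of the 2-oxoglutarate oxygenase type (0.945), and AT5G52190 (0.940) completed the 5. All 5 had the same order of genotype means as AT4G07820, which the choice by r largely fixes.

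Closest to AT2G19970 was AT3G16530, which encodes a legume-type lectin (r = 0.975, and 0.81 within genotypes). It averaged 8.72 in SAB, 8.74 in SIZ1 and 5.39 in AB, against 5.15 in COL, and like AT2G19970 it was lowest on the second COL array, at 4.23. CML42, for a calmodulin-like calcium sensor, had r = 0.968 and the highest value within genotypes, 0.85, and was lowest on the same array, at 4.04. It averaged 5.45 in SAB, 5.32 in SIZ1 and 4.49 in AB, against 4.43 in COL. AT4G25900 (0.972) averaged 7.08 in SAB and 6.91 in SIZ1, against 6.28 in COL. AT2G18210 (0.967) averaged 5.63 in SAB and 5.24 in SIZ1, against 3.14 in COL, but its r within genotypes was 0.15. AT1G07750, a cupin protein (0.966), averaged 6.19 in SAB and 6.23 in SIZ1, against 5.38 in COL. In all 5 the values of SAB and SIZ1 lay above those of AB and COL, which the choice by r largely fixes too.

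**Figure D4:**
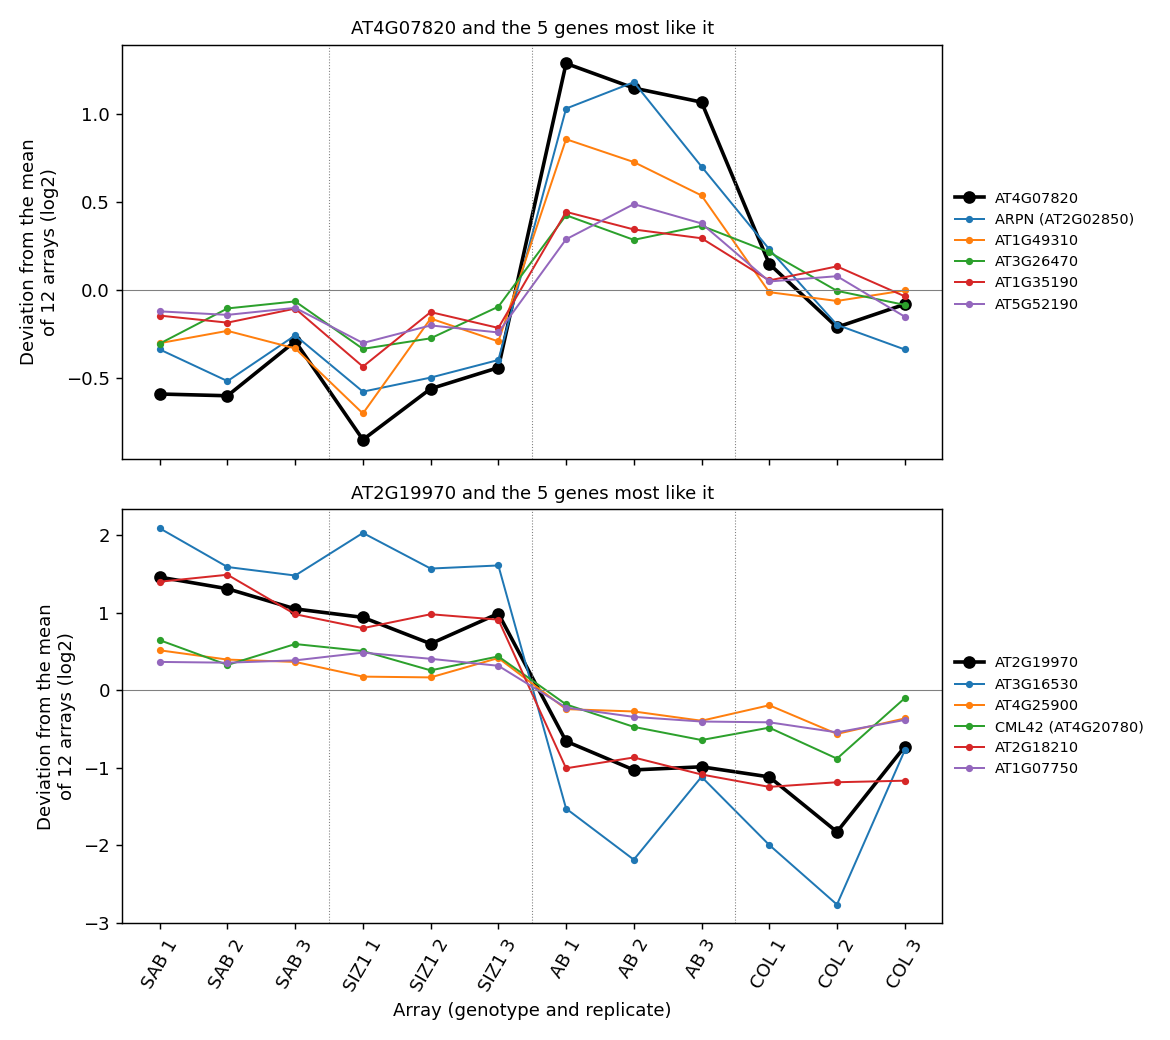
Deviation of log2 expression from the mean of 12 arrays (y axis) on each array (x axis, by genotype and replicate) for AT4G07820 and AT2G19970 (thick black lines) and the 5 genes most like each (thin lines); lines only join the points. The upper set is highest in AB and lowest in SAB and SIZ1, and the lower set is high in SAB and SIZ1 and low in AB and COL.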

How the data were processed

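Total RNA of 12 seedling samples was hybridised to ATH1 arrays. Each deposited value is the log2 expression of a probe set, which the authors made with GCRMA, per the submitters' processing notes; its version and whether all arrays were processed together are not given in the sources used here. The log2 scale was read from the range. The values were used as they stand, and 64 control probe sets were left out, leaving 22746. Names come from the platform's table, updated through RefSeq gene IDs (TAIR10.1): 13513 name 1 gene, 13436 of them updated, 503 name several and 8730 are unnamed here.

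Genotype means were fitted over all arrays together (limma 3.58.1, R 4.3.3; 8 residual and 1.31 prior degrees of freedom), with two-sided tests, Benjamini-Hochberg adjustment over all probe sets and calls at an adjusted p under 0.05. Intervals are at 95% and not adjusted. The fit was run on simulated data with known changes and independent noise on each array. That simulation held no effect shared by replicate number, so it says nothing on the pairing of arrays. The number of arrays limits the precision. The genes, the family list and the other lists were chosen with earlier results of these data known. Named are both genes, the other family loci, the 5 genes most like each, the label checks and the called members of the hormone lists. Neighbouring loci, tissue markers and uncalled members of the hormone lists were named after their values were seen.

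Replicate numbers come from the sample names. For the 18 same-numbered pairs of arrays, deviations from genotype means had correlations between 0.102 and 0.451, so the numbers were taken to pair the samples, and the fit with the replicate number as a block is given where it moves a count. The SEs and intervals come from the fit without the block, so they do not use the pairing.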

Additional observations from a re-analysis of the deposited data

How the results depend on the processing

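AT4G07820 in AB against COL ranged from 1.14 to 1.31 without any 1 array and from 1.22 to 1.23 under 6 other settings, and AT2G19970 from 2.20 to 2.75 in SAB and from 1.77 to 2.32 in SIZ1 without any 1 array. Their directions held under these settings, except the departure of AT2G19970 from the sum, which was -0.15 without COL 3 and -0.02 without SIZ1 2, against 0.10 with all arrays and at most 0.40 without 1 array. AT4G07820 in SIZ1 was called with brighter probe sets alone (limma adjusted p = 0.0229), with a trend and robust prior (0.0417), with median centring (0.0413) and without SIZ1 3 (0.0404). Of the 17 other loci, 0 were called in SIZ1 with quantile normalization, with brighter probe sets alone, which leave AT4G31470 out, or in the fit to SIZ1 and COL alone, and 0 to 1 without 1 array. The other comparisons kept 0 calls among the 17 under every setting run.

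Counts over all probe sets moved more. The fit with the replicate block, which uses the pairing, gave 74 calls in AB, 1167 in SIZ1 and 1173 in SAB against COL, 1552 in SAB against AB and 12 for the departure from the sum. In the comparisons tested for AT4G07820 and AT2G19970, and in all comparisons of the 17 loci, the block changed no call. The comparisons that served to choose the 2 genes were not tested with the block either. Fits to the 2 genotypes alone, with fewer arrays, gave 0 calls in AB, 131 in SIZ1 and 230 in SAB. Brighter probe sets alone gave 43 calls in AB against COL, 4 in SAB against SIZ1 and 3 for the departure, for which the trend and robust prior and median centring gave 2 each. Without 1 array the counts ran from 5 to 27 in AB, from 317 to 909 in SIZ1 and from 334 to 858 in SAB against COL, from 469 to 1156 in SAB against AB, from 0 to 5 in SAB against SIZ1 and from 0 to 3 for the departure. The arrays whose loss moved a count by over 1.5 times were COL 1, COL 3, AB 2, SAB 2 and SIZ1 2 for AB, COL 1, SIZ1 1 and SIZ1 2 for SIZ1, COL 1 and each SAB array for SAB, and AB 1, AB 2, SAB 1 and SAB 2 for SAB against AB. The cause was not tested. Signal over background limits the 12 family loci at the floor, where a change may not be detectable. Listing every probe set of a locus changed nothing, because each of the 19 has 1.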
